A study of Mus musculus with 13 samples.

Results

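The C/EBPα candidate regions that lay in tight groups were examined in LSK cells, the lineage-negative Sca-1+ c-Kit+ fraction of mouse bone marrow that holds the hematopoietic stem cells and the multipotent progenitors. The members were chosen by measured values, namely the positions of the regions themselves. Neighbouring regions were joined where the gap from the end of one to the start of the next was at most 10 kb, and a cluster was kept when it held at least 3 regions. By this rule 544 of 17899 regions (3.04%) were members, and they formed 172 clusters. Another 2694 regions lay in 1347 pairs, and 14661 regions (81.9%) had no neighbour within 10 kb. Because the positions and the scores of the regions come from the same peak call, the numbers, gaps and scores of the members are given as a description, with no test.

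The study profiled C/EBPα binding and histone marks by ChIP-seq, in which chromatin is precipitated with an antibody and the recovered DNA is sequenced. The regions come from 1 of its 13 samples, a C/EBPα precipitation from LSK cells sorted from mice of the strain C57BL/6 cebpa flox/flox;Mx1Cre, made with the antibody 14-AA from Santa Cruz. Its labels do not say whether the floxed allele had been recombined. In this model the Cre recombinase is driven by the interferon-inducible Mx1 promoter and is switched on by injection of pIpC, so that deletion is not limited to blood cells. The IgG mock used as the control of the peak call carries the same strain label. The regions are the candidate stage of the call, before the authors set a peak height, required a peak in both C/EBPα samples, removed regions with high IgG or of a sticky kind and inspected the rest. The study has another LSK C/EBPα library, labelled CebpaWT and of a strain without Mx1Cre, which was not analysed here. With 1 library analysed, no value below has a replicate check, and no read numbers are given with the regions, so the depth behind each is unknown. Shares are given with exact 95% intervals by the Clopper-Pearson method, which allow for counting error alone.

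C/EBPα is a basic leucine zipper transcription factor that binds DNA as a dimer, and it is needed for granulocytic and monocytic differentiation. Each subunit reads one side of a palindrome, of which TTGCGCAA is the ideal form, and departures on one side are tolerated. Regulatory elements of blood genes often lie in groups, in introns or far from the promoter, and neighbouring elements can act on the same gene. A peak caller reports each enriched stretch as a separate region, so stretches that occur in several copies in the genome can also appear as groups of regions.

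The sequences below show the word TTGCNNAA, read on either strand, in the named clusters, so that it can be read beside the scores given later. Each is 40 bases of the plus strand of mm9, and the capitals mark the word. The first lines are from Aqp9, one of the 3 clusters with a word in every region. The words printed for its first and middle regions are the same word on opposite strands, and that of the last region differs.
Aqp9 first region, chr9:71013349-71013388: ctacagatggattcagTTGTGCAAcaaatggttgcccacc
Aqp9 middle region, chr9:71015098-71015137: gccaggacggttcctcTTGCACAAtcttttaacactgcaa
Aqp9 last region, chr9:71022266-71022305: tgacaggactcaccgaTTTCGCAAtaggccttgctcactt
Map2k5 first region, chr9:63157037-63157076: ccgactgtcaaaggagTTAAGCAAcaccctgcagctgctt
Map2k5 second region, chr9:63165984-63166023: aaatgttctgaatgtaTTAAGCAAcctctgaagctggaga
Fbxo31/Map1lc3b region 1, chr8:124094471-124094510: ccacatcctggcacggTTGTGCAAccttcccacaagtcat
Fbxo31/Map1lc3b region 3, chr8:124109322-124109361: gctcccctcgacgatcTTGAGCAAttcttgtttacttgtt
Ywhaq upstream region, chr12:21432646-21432685: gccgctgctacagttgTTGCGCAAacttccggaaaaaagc
Csda middle region, chr6:131327667-131327706: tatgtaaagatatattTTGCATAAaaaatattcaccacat
near Plekhg6, first region, chr6:125361212-125361251: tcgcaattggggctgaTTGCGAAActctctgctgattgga
Msra region 3, chr14:64928904-64928943: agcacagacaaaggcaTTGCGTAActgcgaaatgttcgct
Aff3 region 3, chr1:38265745-38265784: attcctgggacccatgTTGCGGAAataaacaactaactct
Ikzf1 region 2, chr11:11590623-11590662: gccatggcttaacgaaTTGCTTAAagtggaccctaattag
Ikzf1 region 3, chr11:11595284-11595323: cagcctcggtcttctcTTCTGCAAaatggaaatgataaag
Among these, only the Ywhaq line holds the ideal palindrome TTGCGCAA.

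The number of clustered regions was set against the number expected if the regions of each chromosome were placed evenly over its sequenced bases. Even placement gives 264.2 members in 85.8 clusters, by calculation, so the observed 544 members and 172 clusters were 2.06 and 2.00 times the expectation. The ratio grew with the size of the group. There were 1719 gaps of at most 10 kb against 1280.1 expected (a ratio of 1.34), 2694 regions in pairs against 2203.4, and 14661 single regions against 15431.4. Of the clusters, 146 held 3 regions, 24 held 4 and 2 held 5. Even placement takes no account of genes, open chromatin, base composition or mappability, and how far each of these accounts for the excess was not tested.

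**Figure D1:**
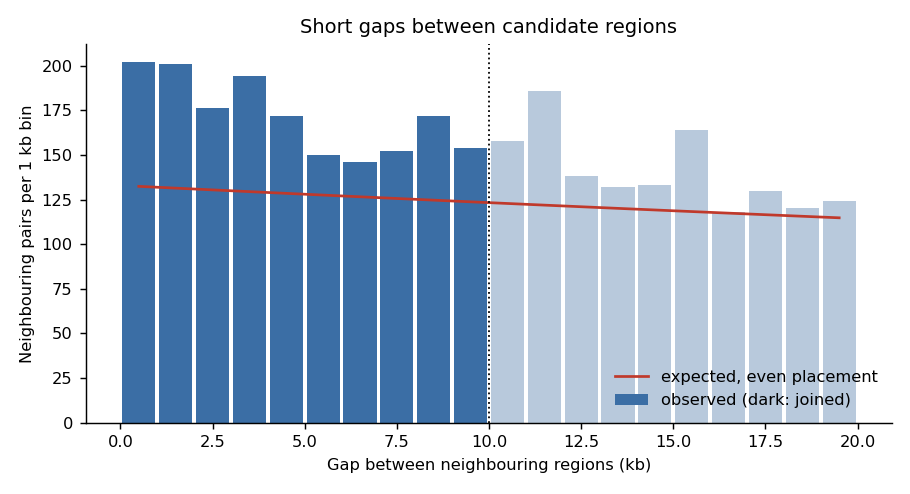
Number of neighbouring pairs of candidate regions (vertical axis) by the gap between them in 1 kb bins (horizontal axis, kb). Bars are observed pairs, dark where the gap is short enough to join, and the line is the number expected under even placement. The observed numbers lie above the line up to 10 kb, with 202 pairs against 132.4 expected in the first bin and 154 against 123.7 in the last joined bin.

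Short gaps were in excess over the whole range that was used for joining. In the bin from 0 to 1 kb the pairs were 1.53 times the expectation, and in the bin from 9 to 10 kb 1.24 times. The limit of 10 kb does not fall at a break in the distribution. There were 154 gaps from 9 to 10 kb and 158 from 10 to 11 kb, the longest gap inside a cluster was 9867 bp, and the nearest region left outside a cluster lay 10273 bp away. Beyond the limit the ratio went up and down, with 1.53 from 11 to 12 kb, 1.39 from 15 to 16 kb, 1.01 from 16 to 17 kb and 1.08 from 19 to 20 kb. The 372 gaps inside clusters had a median of 4168.5 bp and ran from 47 to 9867 bp, with 87 under 2 kb and 62 over 8 kb.

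The clusters were spread over 20 of 21 chromosomes, and the observed number of members was above the expectation on 19 of them. Chromosome 12 had the highest ratio among the autosomes, with 39 members of 795 regions (4.91%) against 9.81 expected. Next came chromosome 8 with 41 against 11.3, chromosome 16 with 27 against 9.32 and chromosome 1 with 53 against 18.6. Chromosome 13 was the autosome below its expectation, with 12 members against 15.2, and chromosomes 14 and 7 were close to theirs with ratios of 1.19 and 1.24. The X chromosome had no cluster, but it had few regions to join, with 152 regions or 0.938 per Mb where the autosomes had 6.07 to 8.54 per Mb. The Y chromosome had 6 regions, of which 3 formed a cluster, and every 32-mer of those 3 regions occurs elsewhere in the genome.

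**Figure D2:**
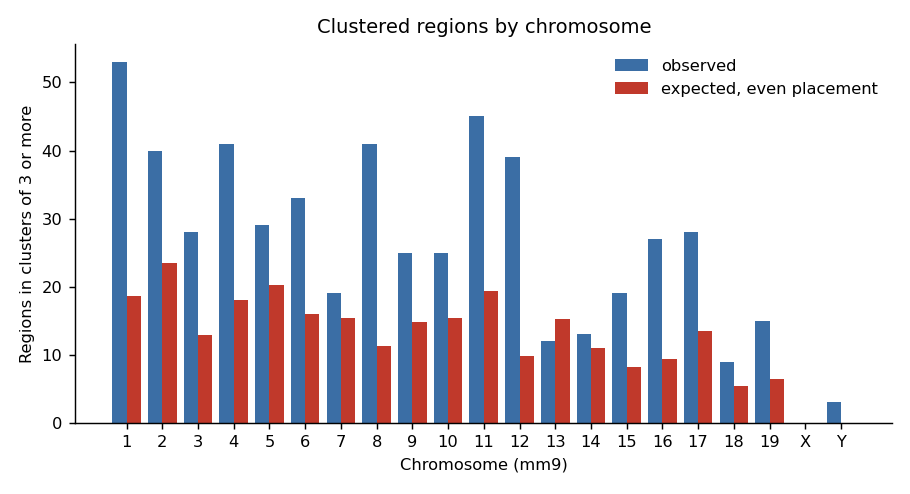
Regions in clusters of 3 or more on each chromosome of mm9 (vertical axis, number of regions), observed and expected under even placement. The observed bar is higher on 19 chromosomes, chromosome 13 has 12 against 15.2, and the X chromosome has 0.

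A cluster spanned 11653 bp at the median, from 2742 to 24132 bp, and its regions covered 16.5% of that span at the median. The shortest span was that of a cluster on chromosome 2, 4575 bp from the nearest transcription start site (TSS), that of Bpifa6. The longest was that of 4 regions in introns of Dst. The next candidate region beyond a cluster lay 39709 bp away at the median. Candidate regions within 1 Mb were counted without those of the region's own cluster or pair. Their median number was 19 for members and for regions in pairs, and 17 for single regions.

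Protein-coding genes were overlapped by 111 of the 172 clusters (64.5%). In 72 clusters a single gene held every region from first to last, and in 58 clusters all region centres were in introns of 1 gene. All regions were intergenic in 64 clusters, and 61 clusters overlapped no protein-coding gene. The nearest TSS was more than 100 kb away for 23 clusters, with the largest distance, 822237 bp, at a cluster on chromosome 2 whose nearest gene was Api5. At the other end, 22 clusters had a region centre within 1 kb of a TSS and 26 contained a TSS. These counts by cluster were not made for other stretches of similar length. Whether they are high or low can therefore not be read from them. Greb1, a gene known for its induction by estrogen, held every region of 2 separate clusters on chromosome 12, at 16718342-16728053 and at 16793661-16803338.

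**Figure D3:**
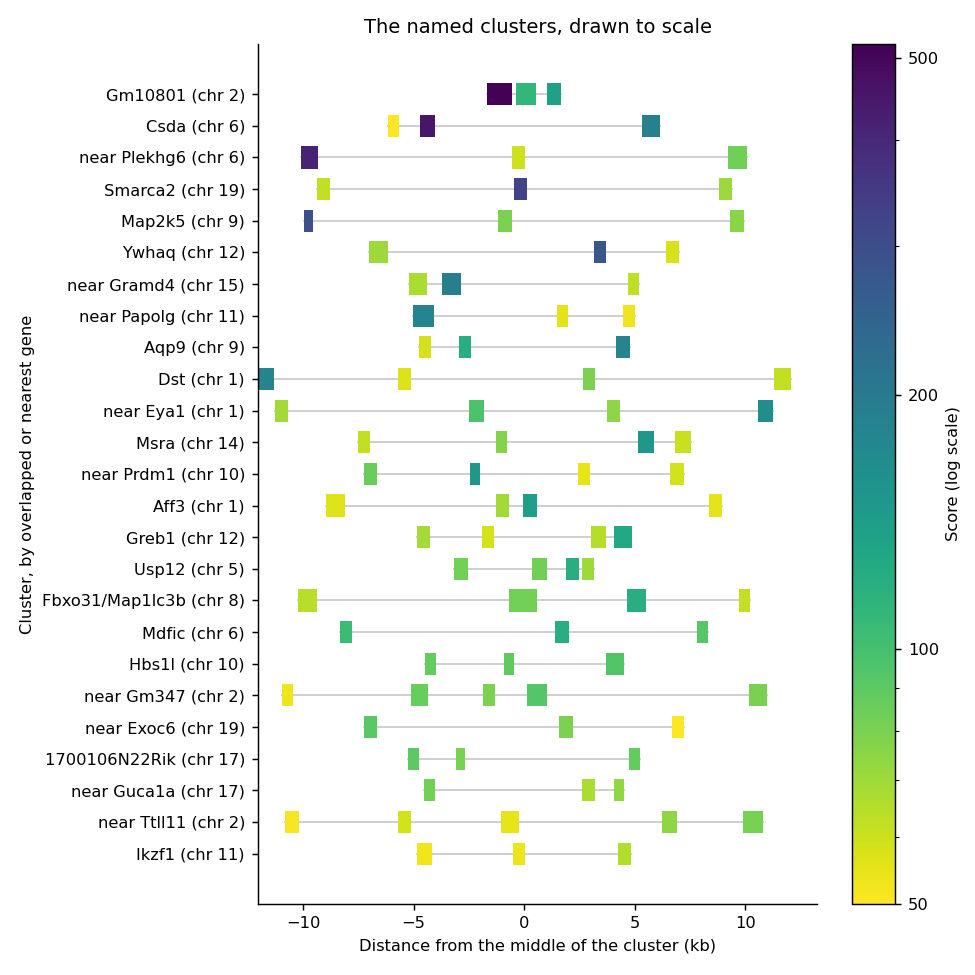
Named clusters drawn to scale (horizontal axis, kb from the middle of the cluster), with each box a candidate region coloured by its score on a log scale. In most of the upper rows 1 dark box lies among paler ones, as in the Csda row with 50.2, 454 and 189.

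The largest clusters held 5 regions, and both lay between genes on chromosome 2. The cluster at chr2:28178182-28200149 had scores of 53.1, 85.3, 79.7, 93.4 and 80.3, where the score is the p-value of the peak caller MACS as a negative log10, multiplied by 10. It lay 103718 bp from the nearest TSS, that of the predicted gene Gm347. The cluster at chr2:35840474-35862088 had scores of 51.2, 58.9, 54.4, 74.3 and 80.6 and lay 5627 bp upstream of Ttll11, which encodes a tubulin polyglutamylase. None of these 10 regions reached a score of 100, and none had the C/EBP word within 70 bp of its centre.

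Of the clusters with 4 regions, 8 were named by rule, those with the highest best scores. In Dst, which encodes a linker of cytoskeletal filaments, the intronic regions at chr1:34294138-34318269 had scores of 179, 56.4, 79.2 and 61.9. Another cluster on the same chromosome, at 14073586-14096145, was intergenic and 204474 bp from the nearest TSS, that of the transcriptional coactivator Eya1, with scores of 69.3, 97.2, 74.4 and 167. Its last region held 4 words, including a pair of near-identical copies.
near Eya1, chr1:14095758-14095797: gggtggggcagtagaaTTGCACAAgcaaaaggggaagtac
near Eya1, chr1:14095817-14095856: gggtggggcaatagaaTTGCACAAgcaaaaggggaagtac
Of the 32-mers of that region, 53.3% occur at more than 1 position of the genome, and in the first 2 regions of the cluster 97.1% and 84.5% do.

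In Aff3, a member of the AF4 family of nuclear factors, 4 intronic regions at chr1:38256469-38274416 scored 56.2, 69.2, 142 and 54.9. Msra, a methionine sulfoxide reductase, held 4 intronic regions at chr14:64915902-64930955 with scores of 61.9, 77.3, 149 and 60.7. In both genes the region with the highest score was the one with the C/EBP word within 70 bp of its centre. The first Greb1 cluster scored 68.3, 58.5, 64.8 and 127, and a cluster at chr5:147545772-147552119 had regions of 82.6, 83.4, 120.2 and 70.5, of which the first was intergenic and the others lay in introns of the deubiquitinase gene Usp12. Neither cluster had the word within 70 bp of a centre.

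The intergenic cluster at chr10:44294326-44308822 scored 85.6, 149, 54.4 and 58.8, and the closest TSS, 116068 bp away, was that of Prdm1, the repressor that drives plasma cell differentiation. At chr8:124094094-124114544 the cluster crossed the neighbouring genes Fbxo31, a substrate receptor of an SCF ubiquitin ligase, and Map1lc3b, the autophagosome marker LC3B. Its scores were 64.2, 82.5, 120.1 and 62.5, and a region centre lay 69 bp from the Map1lc3b TSS. The word was within 70 bp of the centre in 2 of its 4 regions.

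A single region stood out in most of the clusters with the highest scores. The highest of all, 513, was at chr2:98502193-98505545 at the predicted gene Gm10801, beside regions of 111 and 138. In Csda, which encodes a cold shock domain protein that binds DNA and RNA, a region of 454 lay between regions of 50.2 and 189 at chr6:131325819-131338150, and the last was 734 bp from the TSS. On the same chromosome an intergenic cluster at 125360937-125381132 had scores of 415, 59.8 and 83.2. It lay 30502 bp from the TSS of Plekhg6 and all 3 of its regions held a word. The word nearest to the centre was 81 bp away in the region of 415, 0 bp in that of 59.8 and 96 bp in that of 83.2. Only the region with the lowest score thus had it within 70 bp of the centre.

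Smarca2, which encodes the SWI/SNF ATPase BRM, held intronic regions of 62.4, 322 and 70.9 at chr19:26813635-26832430. The TSS of the longest Smarca2 transcript was 134278 bp from the first region, but the centre of the middle region was 31 bp from the start of a shorter annotated transcript, and that region held the palindrome TTGCGCAA 104 bp from its centre. Map2k5, which encodes the kinase MEK5, held regions of 293, 79.5 and 75.8 at chr9:63156859-63176785. In its first region the word lay 1 bp from the centre. At chr12:21422265-21436290, Ywhaq, the gene of a 14-3-3 protein, had a region of 70.3 with its centre 813 bp downstream of the TSS, followed upstream of the gene by regions of 282 and 57.8. The palindrome was in the region of 282, 59 bp from its centre.

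Below these came an intergenic cluster at chr15:85871011-85881402 with scores of 67.0, 190.3 and 62.9, between Celsr1 and Gramd4. A cluster at chr11:23876793-23886845 scored 180.8, 55.3 and 52.9 and lay 82003 bp from Papolg, a poly(A) polymerase gene. Aqp9, the gene of an aquaglyceroporin that passes water and glycerol, had 3 regions at chr9:71013100-71022657 with scores of 58.1, 120.2 and 180.25. The closest of them was 1264 bp from the TSS. The word nearest to the centre was 4 bp away in the region of 58.1, 82 bp in that of 120.2 and 48 bp in that of 180.25.

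Few clusters had high scores throughout. All scores were under 100 in 114 of 172 clusters, and every region reached 100 in 2, among them the Gm10801 cluster. High by the lowest score of a cluster were also Mdfic, with intronic regions of 105, 119 and 92.4 at chr6:15722596-15739224, and a cluster that starts in Hbs1l, a gene for a factor that rescues stalled ribosomes, with regions of 88.0, 88.7 and 94.1 at chr10:21088014-21097012. Its last region centre was 490 bp from the TSS of the neighbouring gene Aldh8a1. The other cluster of this kind was in 1700106N22Rik at chr17:85758249-85768745, with 89.6, 80.9 and 87.9. None of these last 3 clusters held a word in any region.

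Scores were lower in the clusters than outside them. The median was 68.6 for members, with an interquartile range of 58.0 to 84.6, 72.3 for regions in pairs and 74.2 for single regions. A score of at least 100 was given to 68 members (12.5%, interval 9.84 to 15.6), beside 20.3% of all candidate regions, and a score of at least 200 to 6 members (1.10%) beside 2.06% of all. Scores of members ran from 50.15 to 513, where the list starts at 50, and single regions reached 3105. The widths hardly differed, with medians of 592.5 bp for members and 587 bp for single regions.

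**Figure D4:**
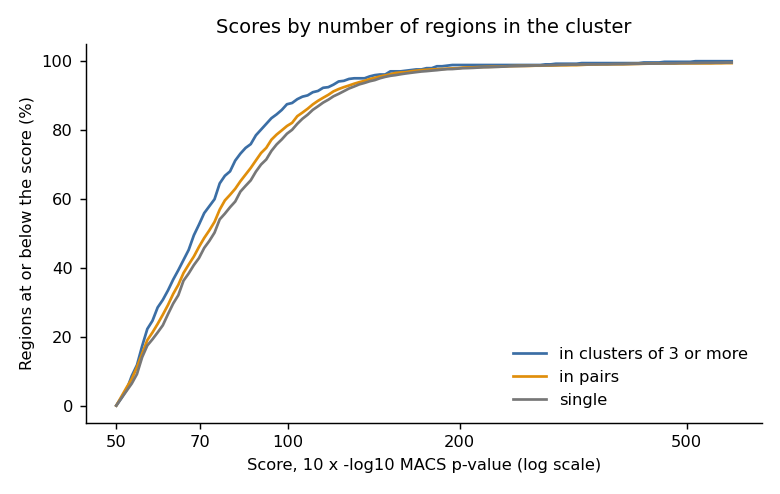
Share of regions at or below a given score (vertical axis, %) against the score (horizontal axis, log scale) for regions in clusters of 3 or more, in pairs and single. From a score of 53.2 up to the medians of 68.6, 72.3 and 74.2 the curve of the clustered regions lies to the left of the others.

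Within a cluster the highest score exceeded the second by a median factor of 1.24, from 1.00 to 4.99, and by at least 2 times in 13 clusters. The highest region of each cluster had a median score of 90.6 and the other members one of 62.5. It lay at an end of the cluster in 108 of 172. However, 146 of the clusters held 3 regions, where every region but the middle one is an end. A preference for the ends can therefore not be read from this count, and none was tested. Taking the highest of several regions raises the median of these regions by construction, so it is not comparable with that of single regions.

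Members were closer to TSSs than single regions, with a median distance of 31411.5 bp beside 43048 bp. Regions in pairs were near the members in this, at 33027.5 bp. A centre within 5 kb of the TSS of a protein-coding gene was found for 79 members (14.5%, interval 11.7 to 17.8), beside 10.4% of all candidate regions, 10.3% of pairs and 10.3% of single regions. Within 1 kb the shares were 4.41% (interval 2.85 to 6.49) and 3.57% for members and single regions, whose intervals overlap. Within 10 kb they were 25.4% and 18.4%, with 20.8% for pairs. Regions of a cluster share their neighbourhood, so that the 79 members lay in 45 clusters, and the interval is too narrow as far as they do.

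The members also lay more often inside genes than single regions did, and regions in pairs were close to the members in this. Intronic centres numbered 257 (47.2%, interval 43.0 to 51.5), beside 39.6% of single regions, and intergenic ones 251 (46.1%) beside 54.6%. In 58 clusters all centres were in introns of 1 gene, so these intervals too are too narrow as far as regions of a cluster share their position. Coding exons held 30 members (5.51%, interval 3.75 to 7.78), beside 4.01% of single regions, a value inside the interval. The 5' untranslated regions held 4 members (0.735%) beside 0.552% of single regions, and the 3' ones held 2 (0.368%, interval 0.0446 to 1.32) beside 1.19%. Of the regions in pairs, 45.5% had intronic centres, 47.2% intergenic ones and 5.46% centres in coding exons. Their shares in the 5' and 3' untranslated regions were 0.408% and 1.48%, which were not closer to the members than to single regions. The bases around the members and the pairs were richer in G and C than those around single regions. The median content was 49.9% in members, 49.1% in pairs and 48.6% in single regions. In the windows 1000 bp away it was 46.1%, 45.4% and 43.6%. CpG dinucleotides numbered 12.6 per kb in members, 12.1 in pairs and 11.2 in single regions at the median.

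Genes that start inside a cluster included several with a region centre almost on the TSS, and those named here were chosen after their values were seen. Tnfaip6, a hyaluronan-binding protein gene, had a region of 164 with its centre 28 bp from the TSS, followed by regions of 63.1 and 71.0. In Itgb5, an integrin subunit gene, the region 153 bp from the TSS scored 61.5 and the next ones 114 and 68.4. Plin2, which encodes a coat protein of lipid droplets, had 3 regions of 66.9, 53.0 and 73.8, of which 1 lay 10 bp from the TSS. The highest score was thus at the TSS in Tnfaip6 and away from it in Itgb5.

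Few genes of the hematopoietic lists were near the clusters. Of 109 annotated genes in 6 lists, 3 (2.75%) had a member in the gene body or within 100 kb of the TSS, beside 2.45% of all 22359 protein-coding genes, a share near the background. Any candidate region was within that reach of 95 of the 109. The same share was not computed for all protein-coding genes, so this number has no background to be read against. None of the 5 annotated C/EBP family genes, 20 cytokine receptor genes, 26 granulocyte and macrophage genes and 15 adhesion genes had a clustered region. Those that did were 2 of 24 stem and progenitor transcription factor genes, Ikzf1 and Hhex, and 1 of 19 cell cycle genes, Ccnd3.

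Ikzf1 encodes Ikaros, a zinc finger factor of lymphoid and progenitor cells, and all 3 region centres of its cluster lay in the gene. The first, at chr11:11585882-11586566, had a score of 52.4 and its centre 8 bp from the TSS at 11586216. The next, at 11590208-11590772, scored 53.6 and lay 4274 bp into the gene, and the third, at 11594945-11595555, scored 65.4 and lay 9034 bp into it. These are low scores for the list, all under its median of 73.75. The words printed above were 153 bp from the centre of the second region and 54 bp from that of the third, and none of the 32-mers of these regions is repeated in the genome.

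The other list genes were distant from their clusters. Hhex, a homeobox gene of early progenitors, starts 79290 bp from the nearest region of a cluster on chromosome 19, at 37586376-37586958 with a score of 90.7, and the TSS closest to that cluster was that of Exoc6 at 24319 bp. Ccnd3 encodes a D-type cyclin of the G1 phase. Its TSS was 93186 bp from the region at chr17:47548575-47549052, which scored 74.0, and this cluster lay 2702 bp from Guca1a, a gene of photoreceptors.

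The C/EBP word was no more frequent at the centres of the clustered regions than elsewhere in the list. It was within 70 bp of the centre in 34 members (6.25%, interval 4.37 to 8.62), beside 7.36% of all candidate regions, 7.35% of pairs and 7.40% of single regions. In windows of the same length 1000 bp to both sides of the members it was found in 59 of 1088 (5.42%, interval 4.15 to 6.94). The excess of centre over flank in the members was thus within counting error. Among all candidate regions the share was 7.36% (interval 6.98 to 7.75) at the centre and 5.87% (interval 5.63 to 6.12) in such windows. Anywhere in the region the word was present in 116 members (21.3%) and in 23.9% of single regions. Per kb of sequence there were 0.377 words in members and 0.474 in single regions.

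By cluster, 30 of 172 had the word within 70 bp of at least 1 centre and 89 had none in any region. The 4 clusters with it at 2 centres or more were those of Aqp9, Map2k5, Fbxo31 with Map1lc3b, and Slc6a11, the last named after its values were seen. No expected number was calculated for these cluster counts, so they have no background to be read against. The highest region of each cluster had the word at the centre in 15 of 172 (8.72%), and the other members in 19 of 372 (5.11%). The share of all candidate regions, 7.36%, lies between these values, and the difference was not tested.

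**Figure D5:**
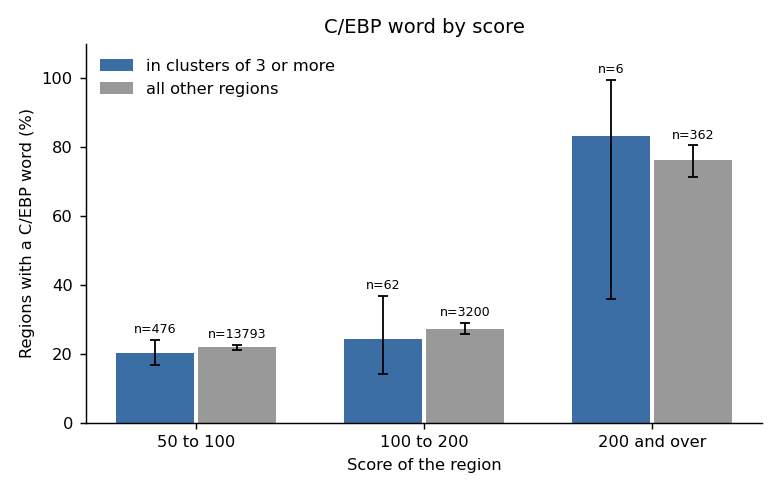
Share of regions with the C/EBP word anywhere in them (vertical axis, %, bars from 0, with exact 95% binomial intervals) in 3 ranges of score (horizontal axis), for regions in clusters of 3 or more and for all other regions. In each range the interval of the clustered regions spans the value of the others, and the share is above 70% in both at scores of 200 and over.

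The share with a word anywhere in the region was larger at higher scores in members and in the rest of the list. Between scores of 50 and 100 it was 96 of 476 members (20.2%, interval 16.7 to 24.1) and 21.9% of the other regions. From 100 to 200 it was 15 of 62 members (24.2%) and 27.3%. At 200 and over, 5 of 6 members (83.3%, interval 35.9 to 99.6) and 276 of 362 other regions (76.2%) had one. The member of this kind without a word was the Gm10801 region. With 6 members, a difference from the others was not detectable.

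Words of other factors, chosen after the data were seen, had shares at the centre of members that differed little from those of all regions. AGGAAGT, read by ETS factors, was in 3.86% of members and 3.98% of all regions, AP-1's TGANTCA in 4.04% and 3.89%, GATA's AGATAAG in 1.10% and 1.39%, and CCCGCCC, read by SP1, in 1.47% and 1.57%. The RUNX word TGTGGTT was in 24 members (4.41%, interval 2.85 to 6.49) and in 3.08% of all, a value inside the interval. All words were searched on both strands.

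How common repeated sequence was in the clusters, relative to the rest of the list, varied with the limit set. Regions with at least 50% of their 32-mers found at more than 1 position of the genome numbered 53 of 544 (9.74%, interval 7.38 to 12.5), beside 9.68% of all candidate regions, 7.16% of pairs and 10.1% of single regions. With a limit of 10% of the 32-mers it was 120 members (22.1%, interval 18.6 to 25.8), beside 27.5% of all candidate regions, 21.8% of pairs and 28.8% of single regions. The 53 regions above the higher limit lay in 26 clusters, and in 9 clusters every region was of this kind. In 4 clusters the regions shared 32-mers with each other. The cluster at BC107364, chr3:96251212-96267354, which also spans annotated U1 snRNA genes, had scores of 67.2, 117, 106 and 53.3 and consisted of inverted copies, in which a stretch of 794 bp from 96254948 to 96255741 returns on the other strand from 96262741 to 96263534. Its outer regions held the same word in mirrored context. In Gm10801 a stretch of 73 bp returns on the other strand. The remaining clusters of this kind were that of Gm7349, with a stretch of 278 bp, and that of Pgap3, with 38 bp of CA repeat, all 4 being named after their values were seen except Gm10801. The lines show both copies of the word in BC107364, and 1 copy each of the longer stretches of BC107364 and Gm10801.
BC107364 first region, chr3:96251398-96251437: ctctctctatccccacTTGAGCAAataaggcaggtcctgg
BC107364 last region, chr3:96267044-96267083: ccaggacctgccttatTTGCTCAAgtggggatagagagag
BC107364 second region, first 100 bases of the stretch, chr3:96254948-96255047: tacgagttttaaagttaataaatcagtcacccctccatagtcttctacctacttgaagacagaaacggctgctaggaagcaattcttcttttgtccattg
Gm10801 first region, chr2:98502684-98502756: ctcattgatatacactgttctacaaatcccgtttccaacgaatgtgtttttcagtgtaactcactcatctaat

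The Gm10801 cluster, with the highest score of all members, thus held between 52.6% and 60.9% repeated 32-mers in its 3 regions and no C/EBP word. Reads from any copy of such sequence can be placed at another, and the part of this in its scores was not tested. A cluster on chromosome 8 across the predicted genes Gm1153, Gm7349 and Gm7354 had scores of 63.9, 161 and 55.0, and 93.2% to 97.7% of the 32-mers of its regions were repeated. Without the 4 clusters that share sequence inside, 531 regions were members and the ratio to the expectation was 2.01. When regions with at least 50% repeated 32-mers were left out before joining, 464 members were found and the ratio was 2.32.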

How the data were processed

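Reads had been aligned by the authors to mm9 using bowtie (0.12.8 per the submitters' processing notes) and regions called with MACS 1.4.2 against an IgG mock at a p threshold of 1e-05. The deposited score is 10 times the negative log10 of that p-value. Pooling of the LSK libraries before the call is not given in the sources used here. The other 12 samples were not analysed here. Members and gene lists were chosen with earlier results of these data known.

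Regions were sorted and joined over gaps of at most 10 kb. The expected numbers were calculated in closed form for the same number and total width of regions, placed evenly on the non-N bases of each chromosome. Genes came from the GENCODE annotation of NCBIM37, which is mm9, with the TSS of the longest transcript. Words on both strands were counted up to 70 bp from region centres, and in equal windows 1000 bp to both sides. A 32-mer was called repeated when found at more than 1 position of the genome. Scripts used Python 3.11.15, pysam 0.24.0 and numba 0.67.0 and were tested on simulated data. Named loci were the 10 clusters with the most regions, the 10 with the highest score, the 5 with the highest lowest score and those with a region within 100 kb of a list gene or in its body, of which 1 is not reported here. No statistical test was run. Alternatives changed the gap, the cluster size, the score minimum, the TSS definition, the word and its window, and the repeat limit.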

Additional observations from a re-analysis of the deposited data

How the results depend on the processing

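Of 37 alternative values, 14 stayed within the limits used, which were 1.5 times for numbers of members and clusters and the 95% interval of counting error for the others, and 23 moved further. With gaps of at most 5 kb there were 197 members in 64 clusters, 2.80 times the expectation, and with 20 kb 1658 in 502, 1.77 times. With scores of at least 100 only, 6 members in 2 clusters were left (2.56 times). Clusters of 4 or more held 106 regions and of 2 or more 3238. Without regions of at least 50% repeated 32-mers the ratio was 2.32. Each of these ratios was above 1, and none was computed for the other cluster sizes. The median score was 90.6 when the highest region of each cluster was taken. The share of members near a TSS was 4.41% within 1 kb, 25.4% within 10 kb, 18.8% with any transcript and 20.8% with gaps of at most 5 kb. The share with the word was 0.368% for TTGCGCAA, 0.919% for TTGTGCAA or TTGCACAA, 12.3% within 150 bp and 21.3% anywhere, and 14.7% for scores of at least 100, an alternative chosen after seeing the data. In regions outside the clusters it was 0.53%, 1.39%, 14.2% and 24.1% in the same order, each above the share of the members. At scores of at least 100 it was 12.2% in such regions, a value inside the interval of the members (7.28 to 25.4). At least 10% repeated 32-mers were found in 22.1% of members. The causes were not tested.

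No paired analysis was possible because 1 library has a file and no test was run. The list holds no read numbers, so the part that depth plays in which regions pass the threshold could not be examined, and a region called as several stretches in this library has no replicate.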
